A study of Arabidopsis thaliana with 12 samples.

Results

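The gibberellin oxidases are the enzymes that carry out the late steps of gibberellin synthesis and the step that inactivates the hormone. The 10 *Arabidopsis thaliana* genes described here were taken as a list of loci: *GA20OX1* (AT4G25420), *GA20OX2* (AT5G51810), *GA3OX1* (AT1G15550), *GA2OX1* (AT1G78440), *GA2OX2* (AT1G30040), *GA2OX3* (AT2G34555), *GA2OX4* (AT1G47990), *GA2OX6* (AT1G02400), *GA2OX7* (AT1G50960) and *GA2OX8* (AT4G21200). They had 13 probes on the array. Of the 10 genes, 8 passed the filter on dim probes and were tested among 25207 genes, and *GA2OX3* and *GA2OX7* did not pass it. In salt-treated roots of both genotypes *GA2OX1* and *GA20OX2* gave higher signals, and *GA2OX8* gave lower mean signals. By limma, only *GA20OX2* in WT passed an adjusted p under 0.05 for the salt response of a single genotype. The other tested genes had mean differences above 0, some of which changed sign with another probe or with an array left out. *GA2OX2*, *GA2OX4* and *GA2OX8* gave lower mean signals in *agb1* than in WT at both times. So, by smaller amounts, did *GA20OX2*, while *GA20OX1* differed little (−0.14 at 4 h and −0.01 at 0 h). None of these differences passed the adjusted threshold at a single time.

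Gibberellins promote growth by binding the receptor GID1, which then brings about the breakdown of the DELLA proteins, repressors of growth in the nucleus. GA20-oxidases catalyse a series of oxidations late in the pathway, and GA3-oxidases make the bioactive hormone from their products. GA2-oxidases inactivate gibberellins: *GA2OX1*, *GA2OX2*, *GA2OX3*, *GA2OX4* and *GA2OX6* encode enzymes that act on C19 gibberellins, the bioactive forms among them, and *GA2OX7* and *GA2OX8* encode enzymes that act on C20 precursors. In roots, gibberellin is known for its part in cell elongation and in the size of the meristem, and salt stress is known to act on growth partly through DELLA proteins.

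Roots of 7-day-old seedlings were measured in 4 groups of 3 arrays: *agb1* at 4 h of 150 mM NaCl, *agb1* at 0 h, WT at 4 h of 150 mM NaCl and WT at 0 h. WT was Col-0, and *agb1* was *agb1-3*, a T-DNA insertion line in the same background that lacks AGB1, the β subunit of the heterotrimeric G protein. It is 1 allele, and no complemented line was among these arrays. The labels give the control as 0 h in salt, whereas the study's methods give it as 4 h in medium without added NaCl. For *agb1* at 0 h, the arrays of replicates 1 and 2 differed by less than repeated spots of one probe on an array (0.0827 against 0.107 on the log2 scale) and were counted as 1 sample, so that means of that group have n = 2 and the other groups n = 3.

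Each value below is a log2 signal, the log2 of the background-corrected intensity less that of the array's 75th percentile, so that values compare arrays for one probe and not one gene with another. Between 74.1% and 76.1% of spots were well above background on each array, and none was saturated. The brighter of 2 *AGB1* probes gave 0.88, 0.39 and 0.67 in *agb1* at 4 h and 0.07, −0.09 and 0.63 in *agb1* at 0 h, against 1.58, 1.32 and 1.26 in WT at 4 h and 1.42, 1.64 and 1.46 in WT at 0 h. It was lower in *agb1* by limma with Benjamini-Hochberg adjustment at 0 h (log2 difference −1.20, SE 0.22, adjusted p = 0.0341) but not at 4 h (−0.74, SE 0.19, adjusted p = 0.112), although the groups did not overlap at either time. It was called at 0 h without 7 of the 12 arrays in turn (highest adjusted p = 0.119). The call at 0 h was lost with the mean of both probes (−0.37, adjusted p = 0.429), since the dimmer probe gave overlapping values in the 2 genotypes. Where the probes lie relative to the insertion was not examined.

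All 10 root markers were well above background on all 12 arrays, and so were all 8 shoot markers, for which none was at 0. The summed linear level of the shoot markers, relative to the 75th percentile, was 18.2 to 23.3 in *agb1* at 4 h and 6.81 to 12.0 in *agb1* at 0 h, against 9.51 to 30.3 in WT at 4 h and 14.5 to 18.7 in WT at 0 h. For the root markers the ranges were 118 to 123 in *agb1* at 4 h and 106 to 143 in *agb1* at 0 h, against 110 to 122 in WT at 4 h and 88.4 to 108 in WT at 0 h. The shoot markers therefore did not overlap between times in *agb1*, nor between genotypes at 0 h. The root markers did not overlap between times in WT, where their sum was higher at 4 h. That sum rested mostly on *PYK10*, which had the highest signal of the list (6.55 in WT at 4 h and 6.23 at 0 h, limma adjusted p = 0.145). *SCR* (adjusted p = 0.0306), *SHR* (0.0499) and *SMB* (0.00928) were called lower by limma. Of the others, *PLT1*, *PLT2*, *COBL9* and *CASP1* had lower means at 4 h and *WOX5* and *EXPA7* higher ones, none called. The part of either list in the results was not tested. In whole roots, fewer cells of a type and less RNA per cell cannot be told apart.

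**Figure D1:**
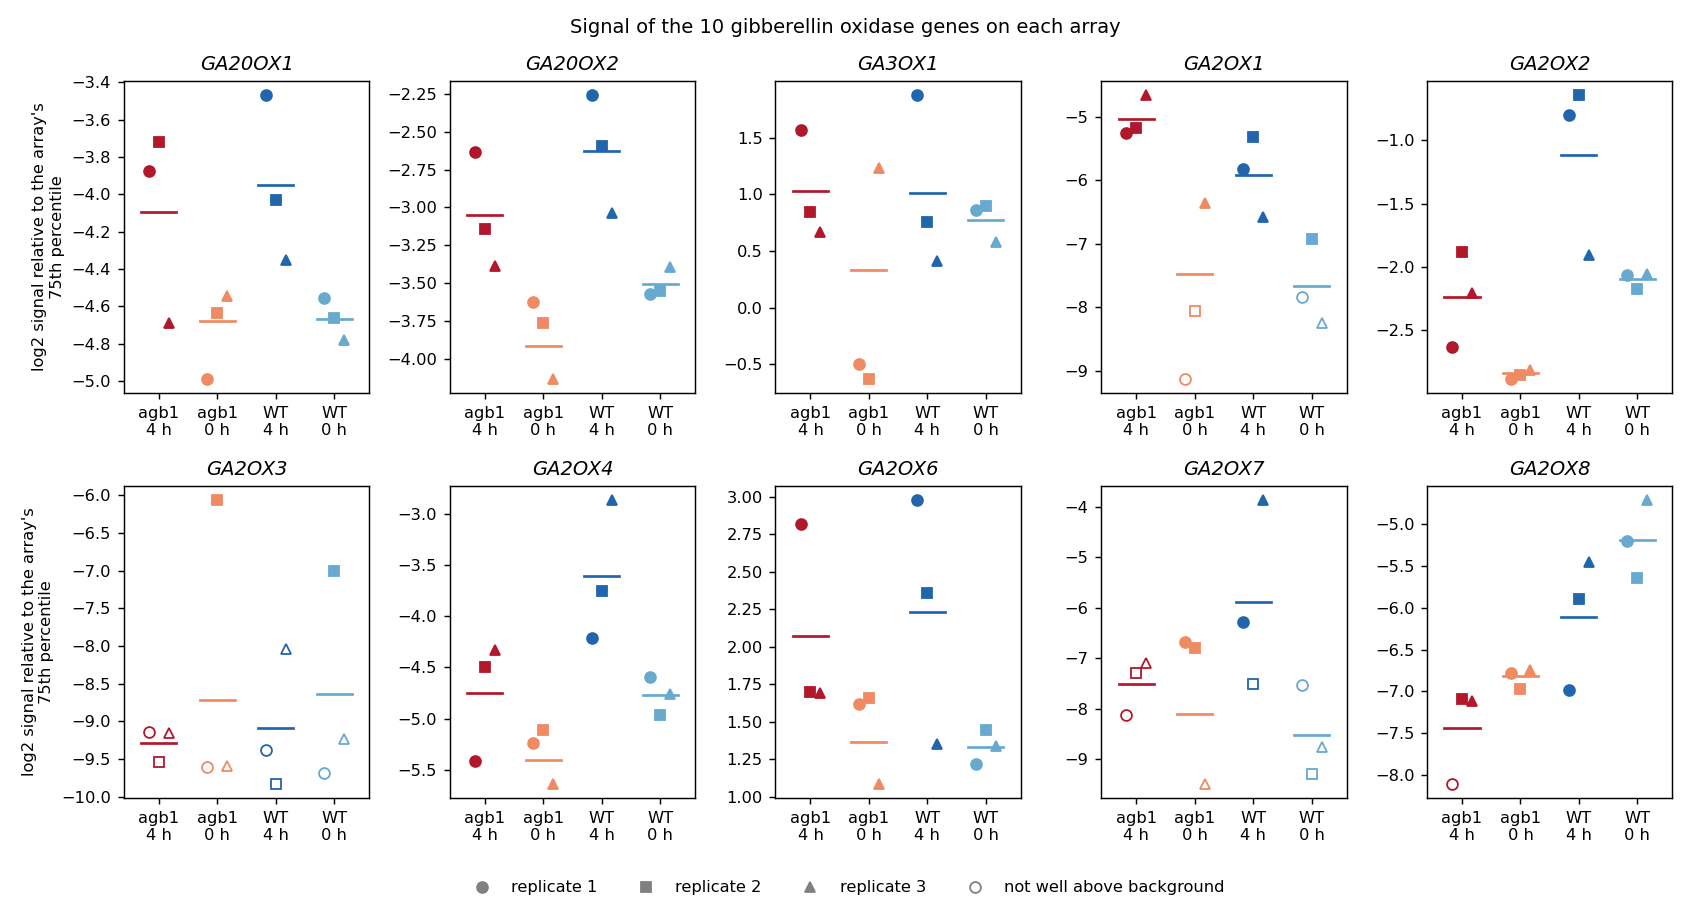
Log2 signal (y axis, relative to the 75th percentile of each array) of the 10 oxidase genes in *agb1* at 4 h, *agb1* at 0 h, WT at 4 h and WT at 0 h (x axis), with 1 point per array, a shape per replicate number, open points where the probe was not well above background and a line at the group mean. *GA2OX1* was well above background on all 6 arrays at 4 h, *GA2OX8* was lower in *agb1* than in WT at both times, and *GA2OX3* was well above background on 2 of 12 arrays.

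Of the synthesis genes, *GA20OX2*, whose enzyme makes the substrates of the GA3-oxidases, gave −2.63, −3.14 and −3.38 in *agb1* at 4 h and −3.63, −3.76 and −4.13 in *agb1* at 0 h. In WT it gave −2.26, −2.59 and −3.03 at 4 h and −3.57, −3.55 and −3.39 at 0 h. Every 4 h array lay above every 0 h array of its genotype. The salt response was 0.86 in *agb1* (SE 0.27, limma adjusted p = 0.123) and 0.88 in WT (SE 0.24, adjusted p = 0.0347), so that *GA20OX2* rose by the test in WT. That call was lost without any 1 of 6 of the 12 arrays, all 3 WT arrays at 0 h among them (highest adjusted p = 0.0997), and with the slide as a block (0.85, adjusted p = 0.0608).

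*GA20OX1*, which encodes another enzyme of the same step, gave −3.88, −3.72 and −4.69 in *agb1* at 4 h and −4.99, −4.64 and −4.55 in *agb1* at 0 h, so that the groups overlapped through replicate 3 at 4 h. In WT the values were −3.47, −4.03 and −4.35 at 4 h and −4.56, −4.66 and −4.78 at 0 h, which did not overlap. Its salt response was 0.59 in *agb1* (SE 0.32, adjusted p = 0.308) and 0.71 in WT (SE 0.28, adjusted p = 0.107), both from limma and neither past the threshold.

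*GA3OX1* encodes the enzyme that completes the synthesis of bioactive gibberellin. Its brighter probe gave 1.56, 0.84 and 0.67 in *agb1* at 4 h and −0.50, −0.63 and 1.23 in *agb1* at 0 h, against 1.87, 0.75 and 0.41 in WT at 4 h and 0.86, 0.89 and 0.58 in WT at 0 h. Replicate 3 of *agb1* at 0 h was thus higher than 2 of the 3 *agb1* arrays at 4 h, and replicates 1 and 2, which count as 1 sample, were the lowest of all 12 arrays. The other probe of the gene had the same pattern, with −0.92, −1.01 and 0.80 in *agb1* at 0 h. The salt response was 0.69 in *agb1* (95% interval −0.56 to 1.94) and 0.24 in WT (95% interval −0.88 to 1.35).

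Among the inactivation genes, *GA2OX1* had the largest salt response of the 8 tested members in each genotype. It gave −5.25, −5.18 and −4.66 in *agb1* at 4 h and −9.12, −8.06 and −6.37 in *agb1* at 0 h, against −5.83, −5.33 and −6.58 in WT at 4 h and −7.85, −6.92 and −8.24 in WT at 0 h. Its probe was well above background on all 6 arrays at 4 h but on only 1 of 3 arrays in each 0 h group, replicate 3 in *agb1* and replicate 2 in WT. The intensity behind these values was 37.5 to 111 units at 4 h and 3.95 to 36.2 units at 0 h. The salt response was 2.45 in *agb1* (SE 0.64, limma adjusted p = 0.0805) and 1.76 in WT (SE 0.57, adjusted p = 0.0590), and in neither genotype did 4 h and 0 h overlap. Without replicate 3 of *agb1* at 0 h no array of that group was well above background, so no size is given for *agb1*. *GA2OX1* passed in WT without that array (adjusted p = 0.0196), without replicate 1 of *agb1* at 0 h (adjusted p = 0.0384) and without replicate 3 of WT at 4 h (2.09, adjusted p = 0.04999). Over the 12 arrays left out in turn the WT response ranged over 1.47 to 2.13 (highest limma adjusted p = 0.186). The sizes rest on signals at 0 h that lay mostly near background. The gene also entered the tests through the 4 h groups, where it was high.

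*GA2OX2* gave −2.64, −1.88 and −2.20 in *agb1* at 4 h and −2.88, −2.86 and −2.81 in *agb1* at 0 h. In WT it gave −0.80, −0.64 and −1.91 at 4 h and −2.07, −2.17 and −2.05 at 0 h. The 0 h arrays of each genotype lay within a narrow range, lower in *agb1*, and at 4 h replicate 3 of WT stood well below the other WT arrays. The salt response was 0.60 in *agb1* (SE 0.35, limma adjusted p = 0.341) and 0.98 in WT (SE 0.31, adjusted p = 0.0555). Leaving out WT replicate 3 at 4 h gave 1.38 in WT (adjusted p = 0.0039). With each of the 12 arrays left out in turn the WT response ranged over 0.74 to 1.38, called in 1 case (highest adjusted p = 0.178). A second, dimmer probe of the gene gave −0.24 in *agb1* (adjusted p = 0.459) and 0.13 in WT (adjusted p = 0.601), so that the probes of *GA2OX2* disagreed in direction in *agb1* and in size in WT.

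*GA2OX4* gave −5.41, −4.50 and −4.33 in *agb1* at 4 h and −5.24, −5.12 and −5.64 in *agb1* at 0 h, against −4.22, −3.75 and −2.87 in WT at 4 h and −4.59, −4.97 and −4.76 in WT at 0 h. In *agb1* the times overlapped through replicate 1 at 4 h, and in WT they did not. The salt response was 0.66 in *agb1* (SE 0.41, limma adjusted p = 0.374) and 1.16 in WT (SE 0.37, adjusted p = 0.0556). It passed in WT without replicate 1 of *agb1* at 4 h (adjusted p = 0.0346) and without replicate 1 of WT at 4 h (1.46, adjusted p = 0.0301). These were the 2 calls among the 12 arrays left out in turn, with a range of 0.79 to 1.46 (highest adjusted p = 0.148).

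*GA2OX6* gave 2.82, 1.70 and 1.69 in *agb1* at 4 h and 1.62, 1.66 and 1.09 in *agb1* at 0 h, against 2.98, 2.36 and 1.35 in WT at 4 h and 1.22, 1.45 and 1.34 in WT at 0 h. Replicate 1 was the highest at 4 h in both genotypes, and replicate 3 of WT at 4 h lay within the 0 h values. Within slides the WT response was 1.76 for replicate 1 and 0.02 for replicate 3, the 2 replicates whose times shared a slide. The fitted salt response was 0.71 in *agb1* (95% interval −0.36 to 1.77) and 0.90 in WT (95% interval −0.06 to 1.85). Without replicate 3 of WT at 4 h it rose in WT by 1.34 (limma adjusted p = 0.0376). That was the 1 call in WT among the 12 arrays left out in turn, with a range of 0.52 to 1.34 (highest adjusted p = 0.401).

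*GA2OX3* was near background throughout. Its brighter probe was well above background on replicate 2 of *agb1* at 0 h (−6.06) and replicate 2 of WT at 0 h (−7.01) and on no other array, and its other probe on none. No fold is given for it, since its group means at 0 h lay under the bound set by background.

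Of the genes for enzymes that act on C20 precursors, *GA2OX8* ran opposite to the other tested members in salt. It gave −8.10, −7.09 and −7.12 in *agb1* at 4 h and −6.78, −6.97 and −6.75 in *agb1* at 0 h, against −6.98, −5.89 and −5.45 in WT at 4 h and −5.20, −5.65 and −4.72 in WT at 0 h. Every *agb1* array lay below every WT array of the same time, and the first value was the only one not well above background. The salt response was −0.63 in *agb1* (95% interval −1.69 to 0.44) and −0.92 in WT (95% interval −1.87 to 0.03), with limma adjusted p-values of 0.459 and 0.152.

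*GA2OX7*, known in *Arabidopsis* as a target of the salt-induced factor DDF1, was well above background on 2 of 3 arrays of *agb1* at 0 h and of WT at 4 h, and on no array of *agb1* at 4 h or WT at 0 h. It gave −8.13, −7.29 and −7.10 in *agb1* at 4 h and −6.68, −6.80 and −9.49 in *agb1* at 0 h, against −6.29, −7.51 and −3.87 in WT at 4 h and −7.52, −9.29 and −8.76 in WT at 0 h. The value of replicate 3 of WT at 4 h, an intensity of 244.5 units, stood far above all others, the next highest being 29.7 units in *agb1* at 0 h. For a bound, each array of the dim group was given its own signal or, if higher, the lowest signal on that array that any probe reached while well above background. By group means, the signal was at least 2.63-fold lower in *agb1* at 4 h than in WT at 4 h. It was at least 3.10-fold higher in WT at 4 h than in WT at 0 h. Both bounds depended on replicate 3 of WT at 4 h, and without it they were 1.31-fold and 1.54-fold. Replicate 2 of WT at 4 h was itself not well above background. It lay below replicates 2 and 3 of *agb1* at 4 h, so the genotypes overlapped at 4 h. The gene was not tested with the filter, and without the filter none of its differences passed limma's adjusted threshold (lowest adjusted p = 0.121).

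Counted over the 8 tested members, no member passed limma's adjusted threshold for the salt response in *agb1*, where 2.12% of all genes did. At an unadjusted p under 0.05, 2 members were higher there, *GA2OX1* and *GA20OX2*, and none lower, against 10.9% of all genes higher and 11.3% lower. In WT 1 member was called, *GA20OX2*, which was higher, against 20.1% of all genes, 8.85% higher and 11.2% lower. The share of members called in either direction was thus not above the background. With 1 call, a share by direction cannot be told apart from the background. At an unadjusted p under 0.05 there were 5 higher members in WT and none lower, against 14.2% of all genes higher and 21.2% lower. The median salt response of the 8 tested members was 0.67 in *agb1* and 0.89 in WT, against −0.04 and −0.10 over all genes tested. For the 4 tested genes of enzymes that act on C19 gibberellins it was 0.68 in *agb1* and 1.07 in WT. At 4 h, 4 members lay wholly above 0 h in *agb1* and 5 in WT, against 16.2% and 17.7% of all genes, and 1 lay wholly below in *agb1* and none in WT, against 18.4% and 27.4%. The 8 genes passed a filter that a gene can meet through the group where it is high, so these counts describe the genes that could be measured.

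**Figure D2:**
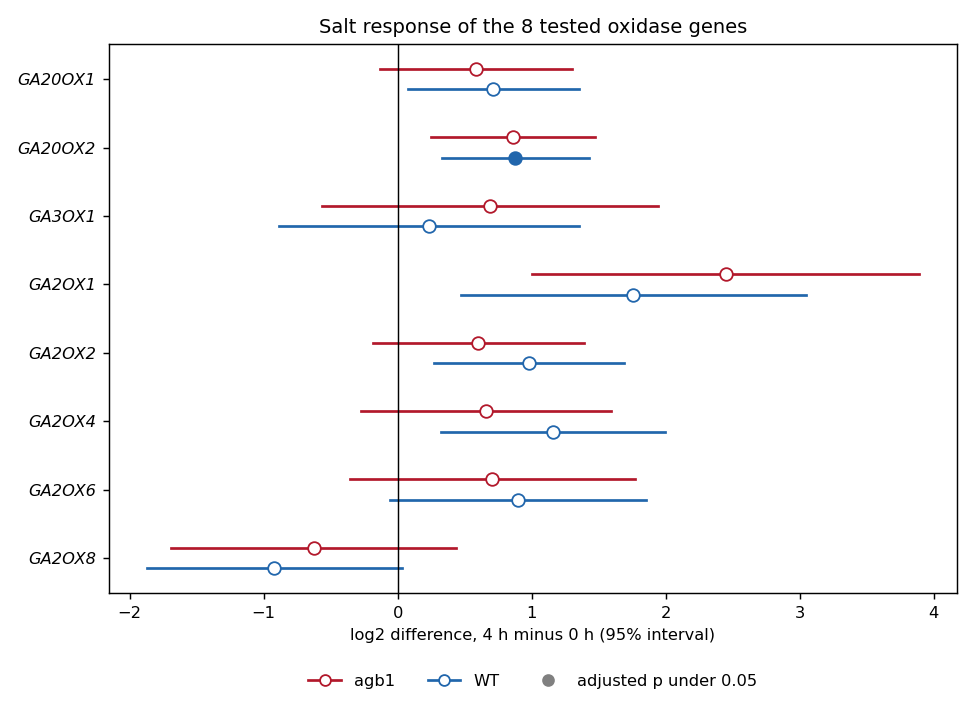
Salt response (x axis, log2 difference of 4 h minus 0 h, with 95% intervals from limma) of the 8 tested oxidase genes in *agb1* (red, upper) and WT (blue, lower), with filled points at an adjusted p under 0.05. Only *GA20OX2* in WT (0.88) is filled, and *GA2OX8* is the only gene below 0, at −0.63 in *agb1* and −0.92 in WT.

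The responses of both genotypes were also averaged in the same fit, a contrast chosen after the single responses had been seen. By limma with Benjamini-Hochberg adjustment, 4 members were called, all higher at 4 h, against 25.1% of all genes, 10.9% higher and 14.2% lower. At an unadjusted p under 0.05, 6 members were higher and 1 lower, against 16.3% and 23.4% of all genes. The fit gave *GA2OX1* as 4.30-fold higher (95% interval on the log2 scale 1.14 to 3.07, adjusted p = 0.00923). This size and the call, which is 1 of the 4, are uncertain. The gene passed the filter through the 4 h groups, where it was high, and only 2 of 6 arrays at 0 h were well above background for it. The filter stayed the same when arrays were left out. On the log2 scale *GA20OX2* rose by 0.87 (SE 0.18, adjusted p = 0.0103), *GA2OX2* by 0.79 (SE 0.24, adjusted p = 0.0375) and *GA2OX4* by 0.91 (SE 0.28, adjusted p = 0.0416). The calls of *GA2OX1* and *GA20OX2* stayed without each of the 12 arrays in turn, whereas those of *GA2OX2* and *GA2OX4* stayed without 4 and 5 of them. With the slide as a block those of *GA2OX2* (0.71, adjusted p = 0.0635) and *GA2OX4* (0.79, adjusted p = 0.0771) were lost and *GA2OX8* was called (−0.91, adjusted p = 0.0295). The call of *GA2OX4* was also lost with quantile normalization (0.84, adjusted p = 0.0556). Without the filter on dim probes, both *GA2OX2* (adjusted p = 0.0555) and *GA2OX4* (adjusted p = 0.0607) were lost. The call of *GA2OX2* also rested on its brighter probe: the other probe gave −0.0552 (adjusted p = 0.763) and the mean of both 0.37 (adjusted p = 0.138). Without replicate 3 of WT at 4 h, 7 members were called, with *GA2OX6* and *GA20OX1* also higher and *GA2OX8* lower (−0.94, adjusted p = 0.0475).

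Between genotypes, no member passed limma's adjusted threshold at either time, against 1.65% of all genes at 4 h and 1.88% at 0 h. At an unadjusted p under 0.05, 3 members were lower in *agb1* at 4 h, *GA2OX2*, *GA2OX4* and *GA2OX8*, and none higher, against 6.05% of all genes lower and 8.28% higher. At 0 h 1 was lower, *GA2OX8*, and none higher, against 10.4% and 8.95%. The median difference over the 8 tested members was −0.29 at 4 h and −0.42 at 0 h, against 0.05 and 0.00 over all genes tested. In *agb1* at 4 h, 2 members lay wholly below WT (*GA2OX4* and *GA2OX8*) and 1 wholly above (*GA2OX1*), against 7.09% and 11.5% of all genes. At 0 h 4 lay wholly below (*GA2OX2*, *GA2OX4*, *GA2OX8* and *GA20OX2*) and none wholly above, against 20.3% and 20.1%. The 2 times share no sample, but each genotype difference shares its samples with the salt responses.

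*GA2OX8* differed most between genotypes, by −1.33 at 4 h (SE 0.42, limma adjusted p = 0.186) and −1.62 at 0 h (SE 0.47, adjusted p = 0.116). Within slides the difference was −1.12, −1.20 and −1.67 at 4 h and −1.58 and −2.03 at 0 h, all below 0. *GA2OX2* differed by −1.12 at 4 h (SE 0.31, adjusted p = 0.13) and −0.74 at 0 h (SE 0.35, adjusted p = 0.281), and its within-slide differences at 4 h ranged from −1.84 to −0.30. Without WT replicate 3 at 4 h the difference at 4 h was −1.52 (adjusted p = 0.015), the 1 member call that leaving out an array gave between genotypes at a single time. *GA2OX4* differed by −1.13 at 4 h (SE 0.37, adjusted p = 0.2) and −0.63 at 0 h (SE 0.41, adjusted p = 0.429), with within-slide differences of −1.46 to −0.75 at 4 h. For these 3 genes, and for *GA20OX2* with smaller differences, every difference within a slide lay below 0.

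The other 5 tested members gave smaller or mixed differences. *GA2OX1* differed by 0.88 at 4 h (95% interval −0.41 to 2.17) and 0.19 at 0 h (−1.25 to 1.63), and *GA20OX2* by −0.42 (−0.97 to 0.13) and −0.41 (−1.02 to 0.21). *GA20OX1*, *GA2OX6* and *GA3OX1* lay between −0.16 and 0.01 at 4 h and between −0.44 and 0.03 at 0 h. Their intervals, the widest being −1.69 to 0.81 for *GA3OX1* at 0 h, leave room for differences of either sign.

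**Figure D3:**
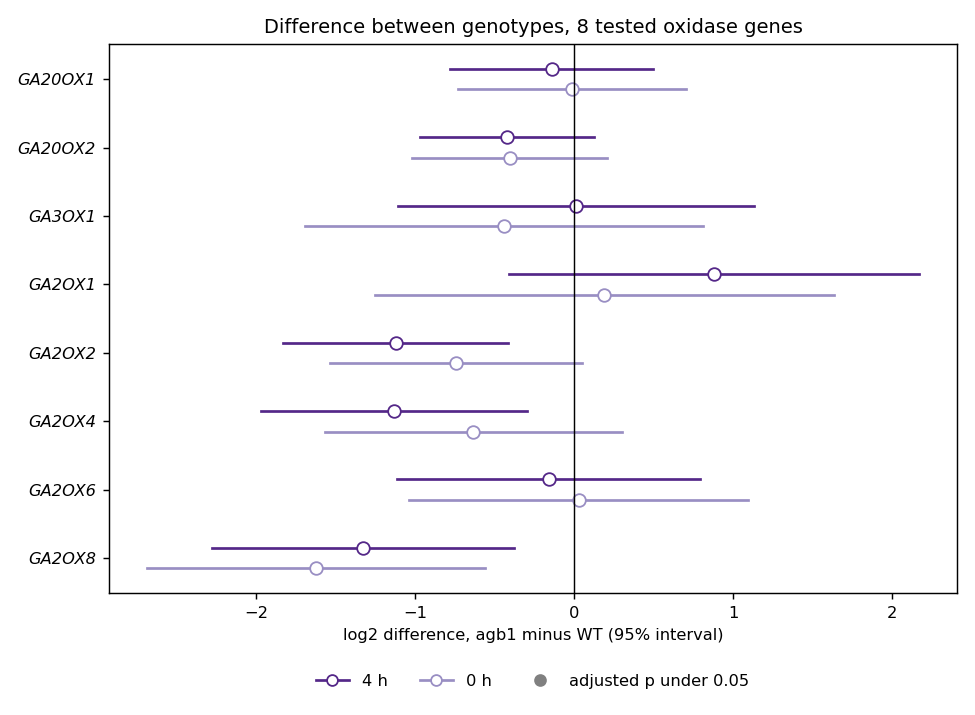
Difference between genotypes (x axis, log2 difference of *agb1* minus WT, with 95% intervals from limma) of the 8 tested oxidase genes at 4 h (dark, upper) and 0 h (light, lower). No point is filled, since none passed an adjusted p of 0.05, and the intervals of *GA2OX8* lie below 0 at both times.

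When the genotype difference was averaged over both times, again a contrast chosen after the values had been seen, *GA2OX8* was lower in *agb1* by limma (−1.48, SE 0.32, adjusted p = 0.0352), the 1 member called, against 4.71% of all genes, 2.65% lower and 2.05% higher. At an unadjusted p under 0.05, 4 members were lower and none higher, against 9.93% and 11.5%. *GA2OX8* was called without 5 of the 12 arrays in turn and not without the other 7 (highest adjusted p = 0.0866). Its size rests on low signals in *agb1*. *GA2OX2* followed with −0.93 (SE 0.24, adjusted p = 0.0571) and *GA2OX4* with −0.88 (SE 0.28, adjusted p = 0.108). The other probe of *GA2OX2* gave −0.53 (limma adjusted p = 0.0433). Under 11 alternatives of processing, that probe among them, *GA2OX2* was called in 4 and not in 7. The summed shoot markers were lower in *agb1* than in WT on all arrays at 0 h and overlapped between genotypes at 4 h. Of the single shoot markers, *RBCS1A* (−1.26, limma adjusted p = 0.2255) and *RBCS2B* (−1.40, adjusted p = 0.13) lay wholly below WT at 4 h. The other shoot markers overlapped there. The part of these markers at either time was not tested.

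Whether the salt response itself depended on the genotype was tested by the interaction, in which the response of WT is taken from that of *agb1*. No member passed limma's adjusted threshold, against 0.179% of all genes, and none had an unadjusted p under 0.05, which 7.14% of all genes had with a higher and 5.23% with a lower response in *agb1*. The estimates ran between −0.50 for *GA2OX4* (95% interval −1.75 to 0.75) and 0.69 for *GA2OX1* (−1.25 to 2.62). The narrowest interval was that of *GA20OX2*, −0.84 to 0.81 around −0.02. Differences of response within these intervals, of either sign, remain possible with these 11 samples.

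Of 38 other genes of gibberellin synthesis, inactivation, perception and response, 30 were tested. For the salt response in WT 3 were higher and 2 lower by limma, and in *agb1* 1 was higher and none lower, with medians of −0.10 in WT and 0.00 in *agb1* over the 30 genes. Over all genes 8.85% were called higher and 11.2% lower in WT and 2.12% in either direction in *agb1*, so that the share of the 30 genes called in WT was not above the background. None was called between genotypes at either time or for the interaction, where unadjusted p-values under 0.05 numbered 1 higher and 1 lower at 4 h (8.28% and 6.05% of all genes), 4 higher and 2 lower at 0 h (8.95% and 10.4%) and 1 higher and 2 lower for the interaction (7.14% and 5.23%).

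*GASA3*, a member of a family of small cysteine-rich peptides regulated by gibberellin, had the largest salt response of the 30 genes, 5.16 in *agb1* (SE 0.33, adjusted p = 0.000327) and 6.50 in WT (SE 0.30, adjusted p = 1.35e-05) by limma. Its group means were −4.52 ± 0.14 in *agb1* at 4 h and −9.68 ± 0.22 in *agb1* at 0 h, against −3.15 ± 0.70 in WT at 4 h and −9.65 ± 0.17 in WT at 0 h (SD). Since it was not well above background on any 0 h array, the rises are bounds of at least 8.98-fold in *agb1* and at least 21.3-fold in WT. It passed the filter only through the 4 h groups, where it was high, so its p-values and its place in the counts of called genes carry that choice. It was the 1 gene of the 30 called in *agb1*. The other 5 tested members of the family did not pass the test.

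*GA20OX5*, a further GA20-oxidase gene, gave −2.27 ± 1.07 in *agb1* at 4 h and −4.98 ± 0.24 in *agb1* at 0 h, against −2.19 ± 1.55 in WT at 4 h and −5.84 ± 0.19 in WT at 0 h (SD). Its salt response was 2.71 in *agb1* (SE 0.82, limma adjusted p = 0.111) and 3.64 in WT (SE 0.73, adjusted p = 0.00984), with wide spread at 4 h. *GA20OX3* and *GA3OX2*, the remaining named synthesis genes, did not pass the test in any comparison: *GA20OX3* gave −0.05 in *agb1* and 0.04 in WT, and *GA3OX2* gave 1.11 in *agb1* and 1.19 in WT.

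*CYP714A1* and *CYP714A2*, neighbouring genes for cytochrome P450 enzymes that modify gibberellins and their precursors, were lower in salt-treated WT roots. Their responses were −0.44 in *agb1* (limma adjusted p = 0.463) and −1.18 in WT (adjusted p = 0.0249) for *CYP714A1*, and −0.36 in *agb1* (adjusted p = 0.448) and −0.85 in WT (adjusted p = 0.0367) for *CYP714A2*. The calls in WT were lost without any 1 of 5 arrays for *CYP714A1* and of 6 for *CYP714A2*, and with the slide as a block (adjusted p = 0.0668 and 0.0805). Of the receptor genes *GID1C* rose in WT by 0.73 (SE 0.16, adjusted p = 0.0125), with 0.73 also in *agb1* (SE 0.17, adjusted p = 0.0659), and the call in WT was lost without replicate 3 of WT at 0 h (adjusted p = 0.0509), without replicate 2 of WT at 4 h (adjusted p = 0.0508) and with the slide as a block (adjusted p = 0.0723). The DELLA genes *RGA1* and *GAI* did not pass: *RGA1* gave −0.04 in *agb1* and −0.34 in WT, and *GAI* gave 0.00 in *agb1* and −0.44 in WT. *DDF1* gave −0.38 in *agb1* (SE 0.71) and 0.80 in WT (SE 0.63), with a spread over WT arrays at 4 h of 1.48 (SD).

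**Figure D4:**
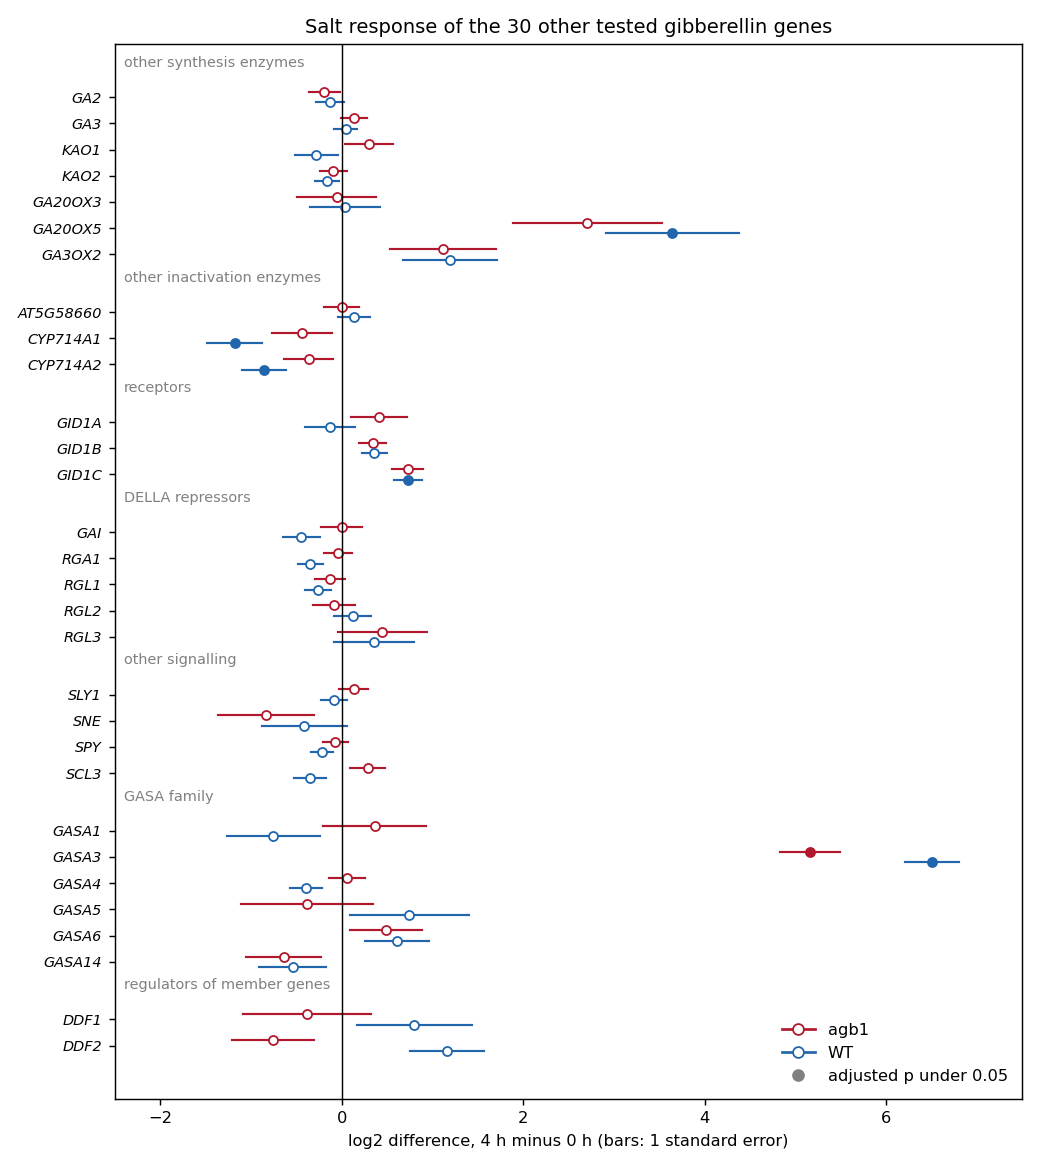
Salt response (x axis, log2 difference of 4 h minus 0 h, bars of 1 SE) of the 30 other tested gibberellin genes in *agb1* (red, upper) and WT (blue, lower), grouped by role, with filled points at a limma adjusted p under 0.05. *GASA3* (5.16 in *agb1*, 6.50 in WT) and *GA20OX5* (2.71 in *agb1*, 3.64 in WT) stand to the right of all others, and *CYP714A1* and *CYP714A2* are the 2 filled points left of 0.

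Of the 6 members that stood well above background on all 12 arrays, those with the widest range of group means were *GA2OX4* (1.79) and *GA2OX2* (1.73). Over the 11 samples the genes most like *GA2OX4* by Pearson's r were AT2G18480 (0.97), AT3G63210 (0.96) and an unannotated probe, A_84_P258360 (0.94), and those most like *GA2OX2* were AT3G44630 (0.94), *CRK36* (0.94) and *CCOAMT* (0.93). These are the highest of a very large number of values, over few samples that share 4 groups, and they are given as a description. *GA2OX4* and *GA2OX2* had an r of 0.65 with each other. Among the 28 pairs of the 8 tested members the highest r was 0.88, between *GA2OX6* and *GA20OX2*, and the lowest was −0.59, between *GA2OX1* and *GA2OX8*.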

How the data were processed

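For each of 12 single-colour Agilent arrays the authors deposited the scanner software's output (Feature Extraction 10.7.1.1 in the file headers, 9.1 in the labels). The authors' software had corrected this intensity for background and had not scaled it between arrays. Control and outlier spots were left out, and 34358 probes were matched to 25433 loci through a RefSeq table of assembly TAIR10.1. The design of the array is older, so no coordinates are given. Genes were tested if they had a probe well above background on all arrays of some group, through the brightest such probe. One fit of 4 group means to 11 samples (limma 3.58.1 in R 4.3.3, lmFit and eBayes) gave each contrast, and a gene was called at a Benjamini-Hochberg adjusted p under 0.05 over all 25207 genes. Of these, 20562 had a locus, and each of the others was a probe without a locus, counted as a gene. The arrays lay on 4 slides, which matched replicate numbers except for WT replicate 2 at 0 h. The deviations of same-numbered arrays correlated at 0.582, 0.351 and 0.374 between genotypes at 4 h, where each pair shared a slide. Between genotypes at 0 h they correlated at −0.0183, −0.00299 and −0.197. Between times they correlated at 0.00971, 0.11 and −0.104 in *agb1* and at 0.212, 0.089 and 0.19 in WT. At 4 h, replicate number and slide cannot be told apart, and the main fit used neither as a block. The study describes 3 independent biological replicates.

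The members, the pathway list and the markers were chosen with earlier results of these data known, and support nothing by their choice. Named genes were all members, *AGB1*, pathway genes called in any single contrast, *GA20OX3*, *GA3OX2*, *RGA1*, *GAI* and *DDF1*, and the 3 genes most like each of 2 members. Alternatives were normexp background correction (offset 50), quantile and median scaling, 2 other filters, the mean of probes, other probes, 12 arrays as samples, replicate and slide blocks, and leaving out each array.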

Additional observations from a re-analysis of the deposited data

How the results depend on the processing

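Over the 11 alternatives other than normexp as planned and leaving out arrays, 336 of 360 values of members in the 5 single contrasts kept their direction and their side of the adjusted threshold, and 124 of 144 in the 2 averaged contrasts. The values below are log2 differences from limma. With the replicate block on 12 arrays, *GA2OX1* at 0 h (*agb1* minus WT) was −0.18, against 0.19. With the block the members called were 2 for the salt response in *agb1* (against 0), 2 in WT (against 1) and 7 averaged (against 4), and between genotypes 1 at 0 h (against 0) and 2 averaged (against 1). It changed no member call at 4 h or in the interaction. With all 12 arrays taken as samples the values were −0.18 for *GA2OX1* at 0 h, and 1, 3, 1 and 2 members called for salt in *agb1*, salt in WT, genotype at 0 h and genotype averaged. Without the filter, members called were 0 for salt in WT, 2 for salt averaged and 0 for genotype averaged. Restricting to probes well above background on every array gave 0 for genotype averaged, since *GA2OX8* then left the test, the mean of probes gave 2, and the slide block gave 0 for salt in WT and 0.0121 for *GA2OX6*, genotype averaged (against −0.07). The interaction of *GA20OX2* (−0.02) was 0.0452 with quantile normalization and 0.0351 with median scaling. The other probe of *GA2OX2* gave −0.24 for salt in *agb1* and −0.0552 averaged.

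Normexp as planned was set by a few spots: on 3 arrays 2 to 4 spots lay in a local background above their own signal by more than 50 units, and the 10th percentile after correction was 314, 948 and 553 there, against 62.8 to 69.3 on the other 9. It gave 0 members called for salt in WT, salt averaged and genotype averaged, and ended the WT calls of *GASA3* (0.65), *GA20OX5* (1.11) and *CYP714A2* (−1.08). Signs turned for salt in *agb1* (*GA2OX8* 0.93) and in WT (*GA2OX1* −1.33, *GA2OX4* −0.58, *GA20OX1* −0.62, *GA20OX2* −0.12), for genotype at 4 h (*GA2OX4* 0.032, *GA2OX8* 0.66, *GA20OX1* 0.54, *GA20OX2* 0.0559), at 0 h (*GA2OX1* −1.70) and averaged (*GA2OX1* −0.28), and for the interaction (*GA2OX2* 0.11, *GA2OX4* 1.68, *GA20OX1* 1.65, *GA20OX2* 1.19). A version added after seeing the data gave those spots the median background of their array. There the same 4 members were called for salt averaged and *GA2OX8* for genotype averaged. *GA2OX8* was also the 1 member called for genotype at 0 h, where its difference was −0.80, against −1.62. For salt in WT 2 were then called, *GA2OX4* and *GA2OX8*, and *GA20OX2* was lost (0.62, adjusted p = 0.0808). Signs turned only for *GA2OX8* in *agb1* (0.12), *GA20OX1* at 4 h (0.0065), at 0 h (0.0037), averaged (0.0051) and in the interaction (0.0028), and *GA20OX2* in the interaction (0.067).

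Leaving out each array, members called ranged over 0 to 1 for salt in *agb1*, 0 to 4 in WT, 2 to 7 averaged, 0 to 1 for genotype at 4 h and 0 to 2 averaged. The 4, 7, 1 (4 h) and 2 came without WT replicate 3 at 4 h, and the 1 for salt in *agb1* without *agb1* replicate 3 at 0 h. Values that changed sign ranged as follows. For genotype at 0 h *GA20OX1* ranged over −0.15 to 0.0734, *GA2OX1* −0.92 to 0.56 and *GA2OX6* −0.0279 to 0.31. At 4 h *GA20OX1* ranged over −0.34 to 0.15, *GA2OX6* −0.60 to 0.21 and *GA3OX1* −0.29 to 0.44. Averaged, *GA20OX1* ranged over −0.18 to 0.0702, *GA2OX1* −0.0229 to 0.72, *GA2OX6* −0.28 to 0.12 and *GA3OX1* −0.66 to 0.0014. In the interaction *GA20OX1* ranged over −0.33 to 0.17, *GA20OX2* −0.24 to 0.17, *GA2OX6* −0.63 to 0.18 and *GA2OX8* −0.14 to 0.63. The salt response of *GA3OX1* in WT ranged over −0.20 to 0.54. Where an array left a group with fewer samples, they were assumed to vary like the other groups. *GA2OX1*, *GA2OX3*, *GA2OX7* and *GA2OX8* lay near background, where their differences were least certain.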
